A study of Mus musculus with 10 samples.

Results

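The nuclear genes of the mitochondrial respiratory chain and of the ATP synthase were followed in mouse natural killer (NK) cells cultured with IL-15, in resting NK cells and in whole splenocytes. Members were chosen by gene symbol: those starting with Ndufa, Ndufb, Ndufc, Ndufs, Ndufv, Uqcr, Cox4 to Cox8 or Atp5, the symbols Sdha to Sdhd, Cyc1 and Cycs. The rule gave 92 of the 18193 genes that have a probe set of their own on the array, with 184 of 34945 single-gene probe sets, and each gene was read from the probe set whose log2 signal, averaged over all arrays, was highest. Complex I contributed 42 genes, complex II 4, complex III with cytochrome c 10, complex IV 19 and complex V 17. Not all are subunits: the symbols also take in 8 complex I assembly factors, named Ndufaf, and Cox7a2l, which helps to join complex III to complex IV. Of the subunits encoded in mitochondrial DNA, 1 gene was represented by a probe set of its own, and it lies outside the rule.

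NK cells that had spent 24 h in culture with IL-15 at 100 ng/mL were hybridised to 3 arrays. IL-15 is a cytokine that activates NK cells and supports their survival. They were set against 3 arrays of resting NK cells lysed straight after sorting and against 4 arrays of resting splenocytes, the mixed cells of the spleen. The mice were wild type C57Bl/6 of an age that the sources used here do not give, and flow sorting took NK1.1+CD3- cells of the spleen as NK cells. Each NK array was described as a biological replicate, and the splenocyte arrays as 2 biological samples with 2 chips each, with no statement of which chips belong together. No NK cells cultured without IL-15 were analysed here, so IL-15 and 24 h of culture cannot be told apart. NK RNA was amplified in 2 cycles and splenocyte RNA in 1, so cell type and amplification cannot be told apart in any comparison with splenocytes.

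In oxidative phosphorylation, complex I oxidises NADH and complex II oxidises succinate, and both pass electrons through coenzyme Q to complex III. Cytochrome c carries the electrons on to complex IV, which reduces oxygen, and complexes I, III and IV pump the protons whose return drives complex V, the ATP synthase. Resting lymphocytes make most of their ATP in this way, and NK cells are known to raise both respiration and glycolysis under prolonged cytokine stimulation.

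Values are deposited array signals that share 1 trimmed mean, so they are relative within an array and a change in total RNA per cell is not visible in them. Signals below 179.8 units, the floor, were set to it before log2 was taken, and a comparison tested the genes that exceeded the floor on 3 or more of its arrays. All 11 NK marker genes of the list used were above the floor on every NK array. The median B-cell marker lay at 0.254% to 0.848% of its splenocyte mean on IL-15 NK arrays and at 11.9%, 9.37% and 0.509% on resting NK arrays 1, 2 and 3, and the summed signal of the 13 B-cell markers was 4748 to 6721 in IL-15 NK cells, 12480 to 42280 in resting NK cells and 306600 to 358600 in splenocytes. Cd79a, a subunit of the B-cell receptor, was at the floor on the IL-15 NK arrays and on resting NK array 3. Other B-cell markers were not: 6, 3 and 5 of the 13 exceeded the floor on IL-15 NK arrays 1, 2 and 3. On resting NK arrays 1, 2 and 3 the counts were 13, 13 and 6. The 12 macrophage and monocyte markers summed to 1397 to 2047 in IL-15 NK cells, 6804 to 28980 in resting NK cells and 197900 to 227700 in splenocytes. C1qa was at the floor on every NK array. Of these 12, 3 were above the floor on each IL-15 NK array and 8, 8 and 9 on resting NK arrays 1, 2 and 3. The 11 T-cell markers summed to 9919 to 11280 in IL-15 NK cells, 15360 to 22260 in resting NK cells and 83980 to 99440 in splenocytes. The median T-cell marker lay at 2.28% to 3.22% of its splenocyte mean on IL-15 NK arrays. On resting NK arrays 1, 2 and 3 it lay at 4.02%, 9.4% and 2.25%. The ratio of the 3' to the 5' control probe set of Gapdh, a sign of RNA or labelling quality that rises as transcripts shorten, was 2.90 to 3.81 on IL-15 NK arrays, 5.88 to 9.54 on resting NK arrays and 1.0 to 1.39 on splenocyte arrays. The same ratio for Actb was 1.28 to 1.49 on IL-15 NK arrays, 2.27 to 6.51 on resting NK arrays and 1.34 to 1.59 on splenocyte arrays. By Actb, IL-15 NK and splenocyte arrays thus overlapped. The part of these differences in the results below was not tested.

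Resting NK array 2 stood apart from the other resting NK arrays in the respiratory genes. Of the 83 members above the floor on every array, 63 were highest on array 2 among the resting NK arrays, and the median member lay 0.36 log2 units above its group mean there, against -0.17 on array 1 and -0.22 on array 3. The median over all genes lay within 0.01 log2 units of 0 on each of the 3 arrays. Array 2 also had the highest Gapdh ratio, 9.54. The median standard deviation of a member was 0.19 log2 units between IL-15 NK arrays, 0.38 between resting NK arrays and 0.16 between splenocyte chips, where all genes had 0.24, 0.29 and 0.19. In IL-15 NK cells and splenocytes the members thus varied less than the median gene, and in resting NK cells more. Counts over all members, and counts per complex between IL-15 and resting NK cells, are therefore given with and without resting NK array 2. Counts per complex against splenocytes are given with all arrays only.

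**Figure D1:**
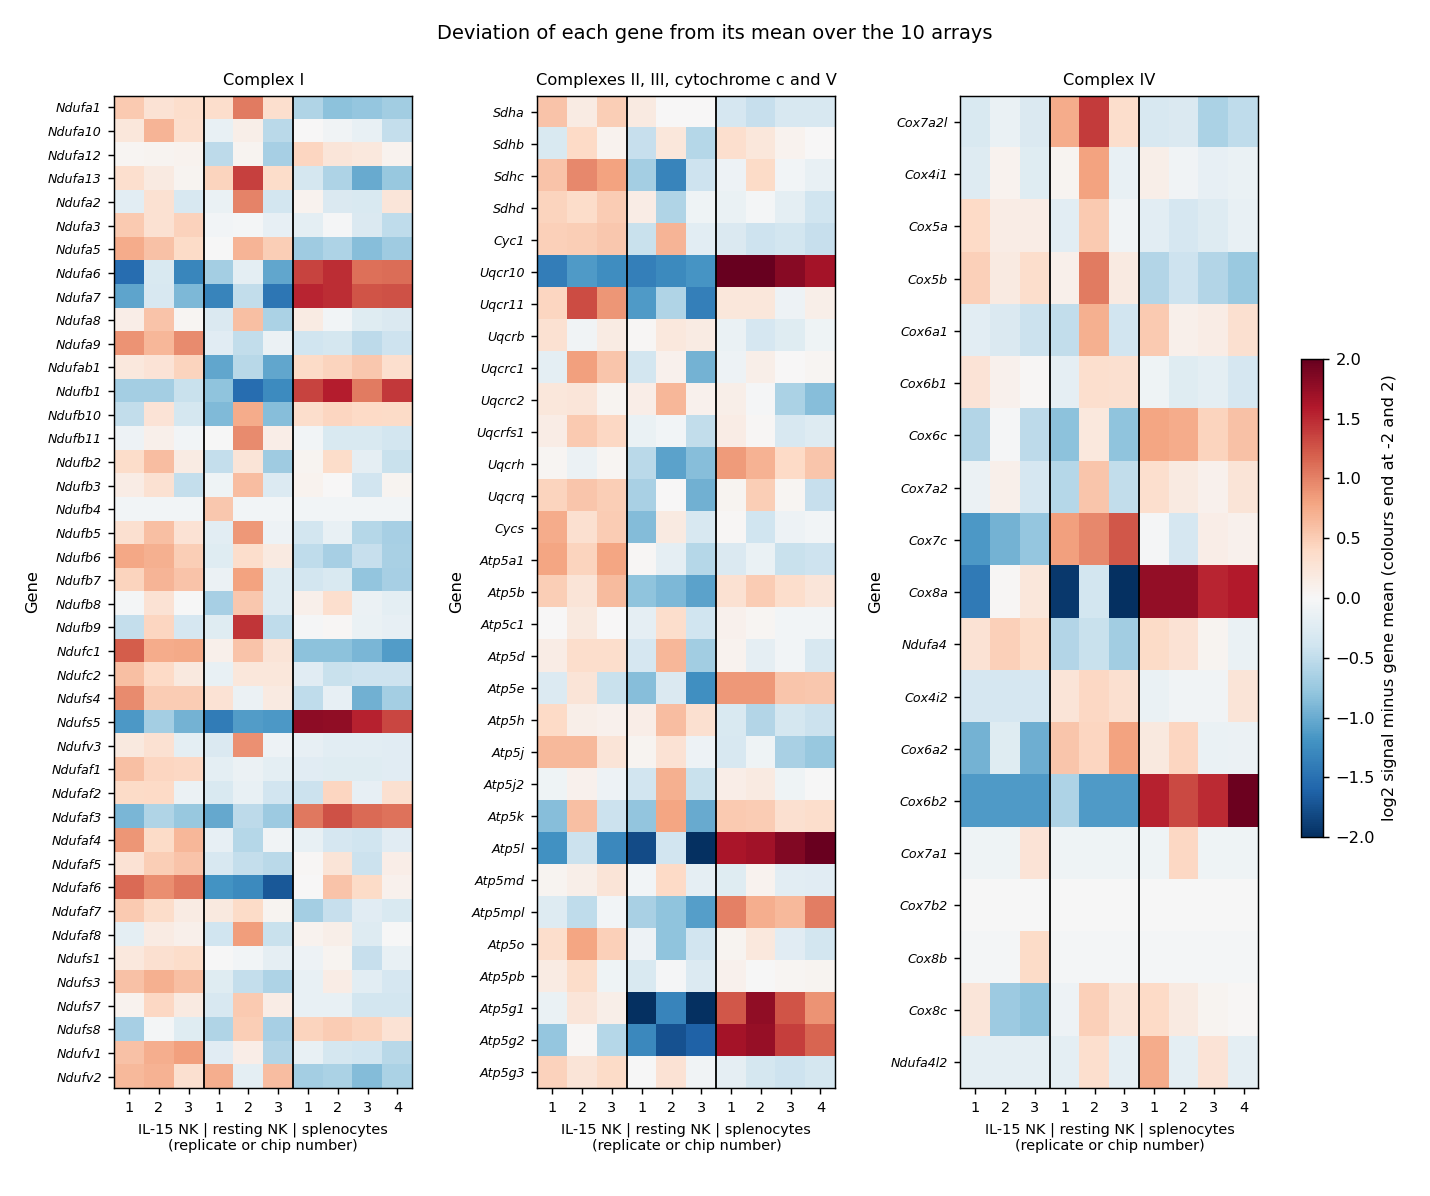
Deviation of each of the 92 genes from its own mean over the 10 arrays, in log2 units after flooring, with genes in rows and arrays in columns. IL-15 NK arrays are left of resting NK arrays and these left of splenocyte chips; among the resting NK columns, array 2 has the highest value for 63 of the 83 genes above the floor on every array, and Uqcr10, Ndufs5 and Atp5l are red in splenocytes and blue in NK cells.

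The first comparison, of IL-15 NK with resting NK cells, addresses how activated and resting cells differ. Of the 92 members, 86 were tested: 22 were higher in IL-15 NK cells, 3 were lower and 61 did not pass (limma, adjusted by Benjamini-Hochberg over the 11433 genes that were tested, threshold 0.05). Over all genes tested, 14.2% were higher and 12.1% lower. The median difference was 0.34 log2 units over the tested members and -0.09 over all genes tested. By complex, 10 of 41 tested genes were higher in complex I, 1 of 4 in complex II, 5 of 10 in complex III with cytochrome c, 1 of 14 in complex IV and 5 of 17 in complex V. The 3 lower genes were all of the complex IV group. Median differences were 0.33, 0.48, 0.70, -0.18 and 0.43 log2 units in complexes I, II, III with cytochrome c, IV and V. The groups did not overlap for 30 members higher in IL-15 NK cells and 5 lower, where 20.5% and 21.6% of all genes tested were so separated. Without the 8 assembly factors and Cox7a2l, 18 of 77 tested subunit genes were higher and 2 lower.

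The number of higher members rested on resting NK array 2. Without it, 36 members were higher, with a median difference of 0.54 log2 units, against 15.6% of all genes, and each of the 25 calls made with all arrays was kept. The higher genes then numbered 17 in complex I, 1 in complex II, 7 in complex III with cytochrome c, 2 in complex IV and 9 in complex V, and the 3 lower genes were again of complex IV. Counts of groups that did not overlap, of subunits without assembly factors and of the pathway lists are given with all arrays only. A further setting left out resting NK arrays 1 and 2, and was chosen after the data were seen because both carried B-cell markers. Its counts of calls are not given. Resting NK array 3, which it keeps, had the highest summed macrophage and monocyte signal of its group, 28980 against 6804 and 20700. That setting holds a single resting NK array, whose spread is taken to be that of the IL-15 NK arrays. Scaling the arrays to a common median moved the median of all genes to 0.13 log2 units and that of the members to 0.60, and gave 35 higher members and 1 lower. These counts are given without the share of all genes called under that scaling.

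**Figure D2:**
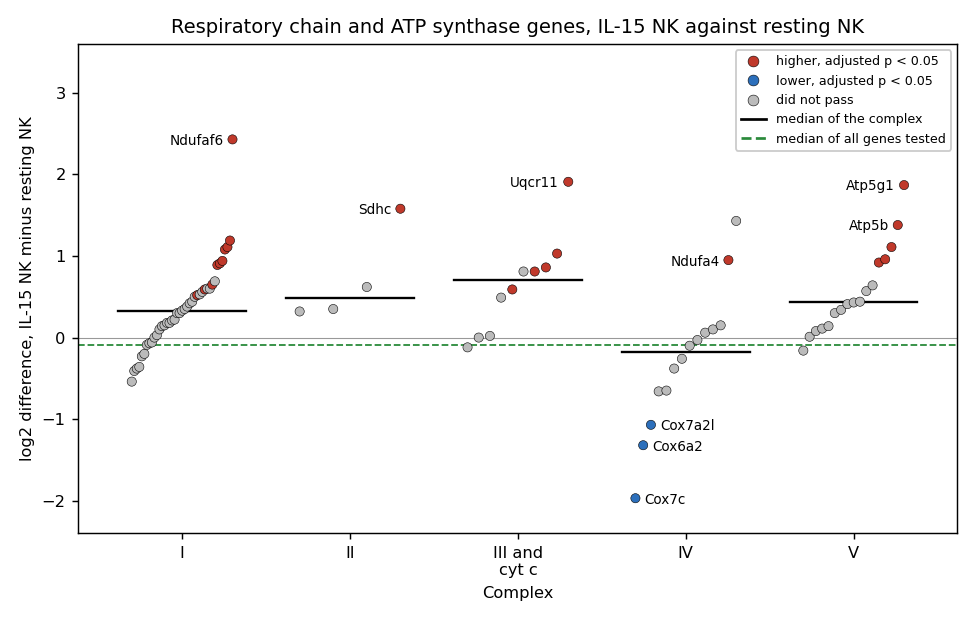
Difference in mean log2 signal, IL-15 NK minus resting NK, for the 86 tested genes, sorted within each complex, with n = 3 arrays per group. Red and blue points passed the test, grey points did not, black bars mark each complex's median and the dashed line the median of all genes tested, -0.09; the medians of complexes I, II, III with cytochrome c and V lie above that line and that of complex IV lies below it.

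Complex I, the largest complex, has a core that oxidises NADH and moves electrons along iron-sulfur clusters, surrounded by accessory subunits, and is put together by assembly factors. Of its 41 tested genes 10 were higher in IL-15 NK cells and 0 were lower: 4 of 27 accessory subunits, 4 of 8 assembly factors and 2 of 6 core subunits were higher by limma. At an unadjusted p under 0.05, 15 were higher and 0 lower. The share of all genes at that threshold was not computed, so this count has no background. Ndufaf6, an assembly factor, had signals of 1287, 1108 and 1214 in IL-15 NK cells and 254, 242 and 32.8 in resting NK cells. It was above the floor on every IL-15 NK array and on 2 of 3 resting NK arrays. With the floor in place of the dim array, it was higher by at least 5.38-fold, or 2.43 ± 0.28 log2 units (SE, limma adjusted p = 0.00023). Ndufab1, the mitochondrial acyl carrier protein that also sits in complex I, had 6133, 6407 and 7234 in IL-15 NK cells against 2569.9, 3584 and 2576 in resting NK cells. Every IL-15 NK array was above every resting one (log2 difference 1.19 ± 0.20 SE, limma adjusted p = 0.002), while its other 4 tested probe sets gave 0.07 to 0.86 log2 units and did not pass. Ndufa9, an accessory subunit next to the coenzyme Q channel, had 22825, 19439.9 and 23484 in IL-15 NK cells against 10511, 8697 and 11281 in resting NK cells (2.16-fold higher, log2 difference 1.11 ± 0.17 SE, limma adjusted p = 0.0014). Ndufs3, a core subunit of the arm that faces the matrix, had 12413, 13622 and 12588 in IL-15 NK cells against 7032, 5968 and 5375 in resting NK cells (2.11-fold higher, log2 difference 1.08 ± 0.17 SE, limma adjusted p = 0.0015). In both genes the groups lay well apart.

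The other 6 complex I calls, named outside the rule for named genes to complete the count, were smaller. Ndufv1, the core subunit that binds NADH and the flavin, differed by 0.94 ± 0.21 log2 units (SE, limma adjusted p = 0.0079). The assembly factors Ndufaf4, Ndufaf5 and Ndufaf1 differed by 0.91, 0.89 and 0.65, and the accessory subunits Ndufc1 and Ndufa3 by 0.59 and 0.52 log2 units. Ndufc1 was at the edge of the threshold, with a limma adjusted p that rounds to 0.05. The calls of Ndufa3, Ndufaf1 and Ndufc1 were lost without any 1 NK array other than resting NK array 2, and that of Ndufaf5 without IL-15 NK array 2 or 3 or resting NK array 3. Over all settings without 1 NK array the differences ranged from 0.47 to 0.58 for Ndufa3, 0.59 to 0.69 for Ndufaf1, 0.44 to 0.72 for Ndufc1 and 0.83 to 0.98 for Ndufaf5. Ndufa1, a small membrane subunit, had 68076, 57933 and 60614 in IL-15 NK cells and 61007, 98082 and 60239 in resting NK cells and did not pass (log2 difference -0.20 ± 0.22 SE, limma adjusted p = 0.55). Its groups overlapped through resting NK array 2, and the difference was 0.03 without that array. The 1 member of complex I that was not tested, Ndufb4, was at the floor on 9 of 10 arrays with its own probe set.

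Complex II, succinate dehydrogenase, is also an enzyme of the citric acid cycle and is encoded wholly in the nucleus. Of its 4 genes Sdhc passed. Sdhc, one of the membrane anchors, had 5363, 7049.7 and 6349.7 in IL-15 NK cells against 2256, 1446 and 2732 in resting NK cells, and was 3.0-fold higher (log2 difference 1.58 ± 0.26 SE, limma adjusted p = 0.0016). The lowest IL-15 NK array was far above the highest resting NK array. The other membrane anchor, Sdhd, differed by 0.62 ± 0.21 log2 units (limma adjusted p = 0.055), and its groups did not overlap either. Sdha, the flavin-bearing subunit that oxidises succinate, differed by 0.35 ± 0.17 and the iron-sulfur subunit Sdhb by 0.32 ± 0.25 log2 units, with limma adjusted p of 0.17 and 0.38. The second tested probe set of Sdhc gave a difference of 0.77 log2 units and did not pass. Of the other tested probe sets of Sdha, one was called higher, with 0.55 log2 units, and one gave 0.24 without passing.

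Complex III passes electrons from coenzyme Q to cytochrome c, and 4 of its 9 genes and the cytochrome c gene Cycs were higher in IL-15 NK cells. Uqcr11, a small membrane subunit, had 5491, 10082 and 7529 in IL-15 NK cells against 1866, 2689 and 1572 in resting NK cells, and was 3.75-fold higher (log2 difference 1.91 ± 0.28 SE, limma adjusted p = 0.00087). Every IL-15 NK array had more than the highest resting NK array by a clear margin. Uqcrh, the hinge protein near cytochrome c1, had 23681, 21298 and 23818 in IL-15 NK cells against 15918, 10974 and 12863 in resting NK cells (log2 difference 0.81 ± 0.18 SE, limma adjusted p = 0.009). Uqcrq, another small subunit, had 7929, 8579.7 and 8224 in IL-15 NK cells against 3713, 5856 and 3006 in resting NK cells (log2 difference 1.03 ± 0.24 SE, limma adjusted p = 0.011). The call of Uqcrq depended on the probe set: its other tested probe sets gave -1.0 and -0.76 log2 units without passing, and the mean of all of its probe sets gave -0.27. The Rieske iron-sulfur protein, Uqcrfs1, completed the higher genes with 0.59 log2 units. Its call was lost under quantile scaling, without the floor filter and without the trend in the fit. It was also lost without IL-15 NK array 2 or 3 or resting NK array 1 or 3, with differences of 0.46 to 0.70 over the settings that leave out 1 array. Cyc1, the cytochrome c1 subunit, had 28700.2, 29039 and 30011 in IL-15 NK cells and 15241, 33233 and 17825 in resting NK cells, where array 2 alone exceeded every IL-15 NK array, and it did not pass (limma adjusted p = 0.2). Uqcrb, which helps to hold coenzyme Q in place, differed by 0.00 ± 0.18 log2 units (limma adjusted p = 0.99), while its other tested probe set was called higher, with 1.07 log2 units.

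Cycs encodes cytochrome c, the mobile electron carrier that is also known for starting apoptosis when it leaves the mitochondrion. It had 55142, 41182 and 47107 in IL-15 NK cells against 18155, 37438 and 26514 in resting NK cells. Resting NK array 2 came near the lowest IL-15 NK array, and the groups did not overlap (log2 difference 0.86 ± 0.25 SE, limma adjusted p = 0.031). The call was lost without IL-15 NK array 1 or 3 or resting NK array 1 or 3. The difference ranged from 0.59 to 1.11 over the settings that leave out 1 array. The call was also lost without the floor filter and without the trend in the fit. Both of its other tested probe sets were also called higher, with differences of 1.22 and 1.05 log2 units.

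Complex IV, cytochrome c oxidase, has a catalytic core encoded in mitochondrial DNA and a coat of small nuclear-encoded subunits, several of which exist as widely expressed and tissue-restricted isoforms. It was the only group with lower members, 3 of 14 tested, and with a median difference below 0. Its 10 widely expressed subunits had a median of 0.01 log2 units, with 1 higher and 1 lower. The 3 tested tissue-restricted isoforms had a median of -0.66, with 1 lower. The remaining lower gene was Cox7a2l, which is not a core subunit. Cox7c, a widely expressed coat subunit, had 1056, 1213 and 1370.2 in IL-15 NK cells against 4135, 4588 and 5542 in resting NK cells, and was 3.91-fold lower (log2 difference -1.97 ± 0.22 SE, limma adjusted p = 0.00022). All IL-15 NK arrays were far below all resting ones. A second probe set of Cox7c gave -0.23 log2 units and did not pass (limma adjusted p = 0.67). Cox6a2, the isoform known from heart and skeletal muscle, had 334, 541 and 326 in IL-15 NK cells against 941, 862 and 1126 in resting NK cells (2.5-fold lower, log2 difference -1.32 ± 0.30 SE, limma adjusted p = 0.0099). Cox7a2l had 29879.6, 33800.4 and 30296 in IL-15 NK cells against 62132, 97322 and 47226 in resting NK cells (2.11-fold lower, log2 difference -1.07 ± 0.25 SE, limma adjusted p = 0.01). Of its other probe sets, one was also called lower, with a difference of -1.22, and the third gave -0.37 log2 units without passing. Under scaling to a common median Cox7c alone passed as lower, and Cox6a2 and Cox7a2l did not pass.

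The higher member of the complex IV group was Ndufa4, first assigned to complex I and now counted with complex IV. It had 14702, 16727 and 15664 in IL-15 NK cells against 8028, 8878 and 7485 in resting NK cells (1.93-fold higher, log2 difference 0.95 ± 0.16 SE, limma adjusted p = 0.0021). Its paralog Ndufa4l2, known as a hypoxia-induced gene, was at the floor on every IL-15 NK array and on 2 of 3 resting NK arrays and was not tested. Cox8a, a coat subunit, had 1122, 3022 and 3466 in IL-15 NK cells and 782, 2306 and 334 in resting NK cells. These wide ranges overlapped, and the difference of 1.43 ± 0.64 log2 units did not pass (limma adjusted p = 0.13). Cox4i1, Cox6a1, Cox6b1 and Cox7a2, the widely expressed isoforms of their families, differed by -0.38, -0.26, -0.03 and 0.06 log2 units, with none passing. Of the tissue-restricted isoforms, Cox6b2, Cox7a1, Cox7b2 and Cox8b were not tested, being above the floor on at most 1 of the 6 NK arrays. Cox4i2, an isoform known from lung, was at the floor on every IL-15 NK array and had 271, 301 and 283 in resting NK cells, just above it (limma adjusted p = 0.061). Cox8c, known from testis, had 932, 478 and 452 in IL-15 NK cells and 739, 1103 and 945 in resting NK cells and did not pass (limma adjusted p = 0.2).

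Complex V makes ATP in its F1 head when protons turn the rotor ring of subunit c in the membrane, and 5 of its 17 genes were higher in IL-15 NK cells. In the F1 head, Atp5b, the catalytic beta subunit, had 39699, 33846 and 43724 in IL-15 NK cells against 16185, 15207 and 13413 in resting NK cells, and was 2.61-fold higher (log2 difference 1.38 ± 0.17 SE, limma adjusted p = 0.00038). All IL-15 NK arrays lay far above the resting ones. Atp5a1, the alpha subunit of the same head, had a difference of 0.92 log2 units with its brightest probe set, and its other tested probe sets gave 0.13 and -0.42 without passing. Atp5o, the subunit of the stalk that holds the head in place, had 14370.0, 19499.5 and 15662 in IL-15 NK cells against 10579.5, 6437 and 8689 in resting NK cells (log2 difference 0.96 ± 0.22 SE, limma adjusted p = 0.0088).

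Subunit c is encoded by Atp5g1, Atp5g2 and Atp5g3, which give the same mature protein and differ in the targeting peptide that is cut off on import. Atp5g1 had 2336, 3028 and 2778 in IL-15 NK cells against 623, 1028 and 634 in resting NK cells, and was 3.64-fold higher (log2 difference 1.87 ± 0.28 SE, limma adjusted p = 0.0011). Atp5g2 had 4624, 8058 and 5303 in IL-15 NK cells against 3235, 2365 and 2586 in resting NK cells, and was 2.15-fold higher (log2 difference 1.11 ± 0.25 SE, limma adjusted p = 0.0082). In both genes every IL-15 NK array was above every resting one. Atp5g3 had 77261, 67708 and 73315 in IL-15 NK cells and 55951, 68799.7 and 53392 in resting NK cells. Its groups overlapped through resting NK array 2, and the difference of 0.30 ± 0.18 log2 units did not pass (limma adjusted p = 0.25, 95% interval -0.10 to 0.70). Whether the 3 genes differ from each other in their response was not tested. A second tested probe set of Atp5g2 gave 0.58 log2 units and did not pass.

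**Figure D3:**
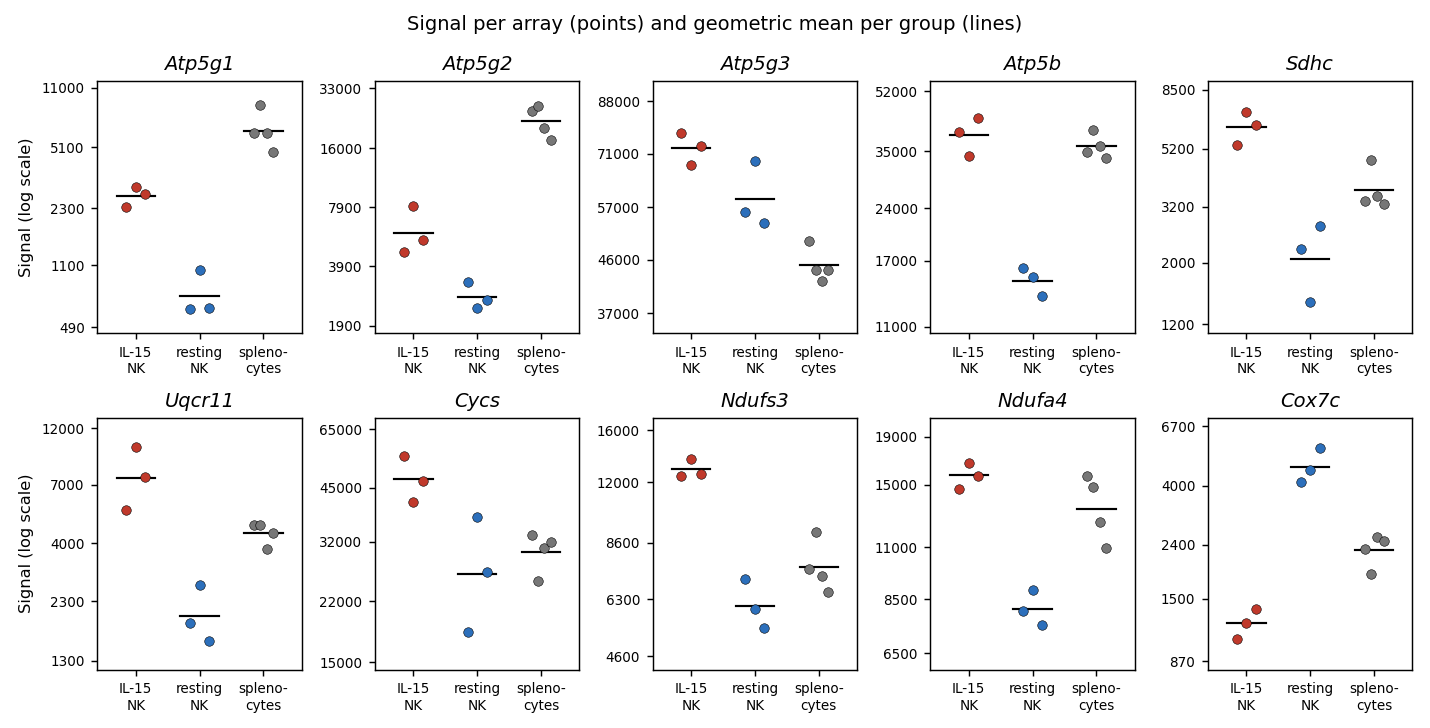
Signal of 10 genes on each array, on log axes of different range, with points for arrays and lines for the geometric mean of each group; IL-15 NK (3 arrays) is left of resting NK (3) and splenocytes (4 chips of 2 samples). Atp5g1 and Atp5g2 were brightest in splenocytes, Atp5g3 in IL-15 NK cells, and Cox7c in resting NK cells.

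The promoters of the subunit c genes are shown because they are the closest set of members with unlike calls, with that of Cycs, a known target of nuclear respiratory factor 1 (NRF1), and that of Cox7c, the lower subunit with the largest difference. Each window runs from 250 bases before to 50 after the annotated start and comes from RefSeq, build GRCm38.p6, read 5′ to 3′ on the gene's strand. Capitals mark matches to 4 motifs searched on both strands: the NRF1 core GCATGCG, the ETS motif CCGGAAG read by GABP, the YY1 motif ATGGCGG and the E-box CACGTG read by Myc and its relatives. Overlapping matches were kept, so the 8 capital letters in Atp5g2 and Cycs hold the NRF1 core on both strands.
Atp5g1, chr11:96075582-96075881, minus strand: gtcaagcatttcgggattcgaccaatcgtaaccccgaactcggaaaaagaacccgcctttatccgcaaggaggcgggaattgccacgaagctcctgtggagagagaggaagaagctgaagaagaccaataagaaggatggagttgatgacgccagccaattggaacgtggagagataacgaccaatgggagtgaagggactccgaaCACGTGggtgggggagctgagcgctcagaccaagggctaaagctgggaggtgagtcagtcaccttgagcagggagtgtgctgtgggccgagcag
Atp5g2, chr15:102670998-102671297, minus strand: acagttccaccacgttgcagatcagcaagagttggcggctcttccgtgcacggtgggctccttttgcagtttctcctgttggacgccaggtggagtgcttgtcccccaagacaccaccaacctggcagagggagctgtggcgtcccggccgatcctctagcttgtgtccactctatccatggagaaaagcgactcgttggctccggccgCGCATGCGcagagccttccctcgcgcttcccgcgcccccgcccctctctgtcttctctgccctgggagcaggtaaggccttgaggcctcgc
Atp5g3, chr2:73911277-73911576, minus strand: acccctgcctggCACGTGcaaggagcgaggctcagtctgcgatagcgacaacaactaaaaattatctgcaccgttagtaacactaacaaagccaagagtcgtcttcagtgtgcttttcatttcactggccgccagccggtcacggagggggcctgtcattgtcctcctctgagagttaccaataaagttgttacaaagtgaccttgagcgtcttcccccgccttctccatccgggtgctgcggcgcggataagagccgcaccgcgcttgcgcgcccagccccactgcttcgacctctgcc
Cycs, chr6:50566520-50566819, minus strand: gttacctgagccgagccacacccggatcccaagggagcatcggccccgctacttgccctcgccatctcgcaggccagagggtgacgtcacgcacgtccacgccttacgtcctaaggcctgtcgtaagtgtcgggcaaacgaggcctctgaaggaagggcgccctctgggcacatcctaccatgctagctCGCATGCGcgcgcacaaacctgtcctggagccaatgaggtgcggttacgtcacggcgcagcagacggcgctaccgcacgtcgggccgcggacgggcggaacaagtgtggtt
Cox7c, chr13:86046746-86047045, minus strand: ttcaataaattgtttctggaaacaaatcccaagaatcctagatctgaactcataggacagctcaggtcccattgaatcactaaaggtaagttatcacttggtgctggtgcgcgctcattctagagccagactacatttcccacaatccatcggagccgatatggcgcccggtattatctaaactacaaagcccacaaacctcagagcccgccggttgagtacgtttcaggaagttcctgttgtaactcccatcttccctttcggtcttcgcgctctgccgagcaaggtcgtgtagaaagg
Atp5g1 and Atp5g3 each hold 1 E-box, at positions 207 and 13 of the window, and Atp5g1 passed the test while Atp5g3 did not. The Atp5g3 window lies wholly inside the annotated gene, which spans 73908447 to 73912464 on chromosome 2. It therefore belongs to a start within the gene and is not a like counterpart of the Atp5g2 window. The NRF1 core lies at positions 210 and 211 in Atp5g2 and at 190 and 191 in Cycs, both higher in IL-15 NK cells. The Cox7c window holds none of the 4 motifs. At least 1 of them was in 40 of the 80 windows of members, or 50%, against 34.8% of windows of all genes tested. Among members higher in IL-15 NK cells, 12 of 18 windows held at least 1, so windows without a motif occur there too.

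Windows were found for 75 of the 92 members, 80 windows in all. The NRF1 core was in 16.2% of the members' windows, against 6.31% of 11888 windows of all genes tested in the NK comparison and 3.58% of all 32851 windows of the table. The ETS motif was in 23.8% of members' windows against 17.7% and 8.86%, the YY1 motif in 15% against 7.88% and 4.05%, and the E-box in 8.75% against 9.72% and 7.15%. Of the 18 windows of members higher in IL-15 NK cells, 27.8% held the NRF1 core, 22.2% the ETS motif, 11.1% the YY1 motif and 11.1% the E-box. Of the 55 windows of members that did not pass, 14.5%, 27.3%, 18.2% and 9.09% held them in the same order. The shares among the higher members rest on counts of 2 to 5 windows each, and differences between these sets were not tested. For the E-box, the share among the higher members lay near the 9.72% of all genes tested. A match describes the letters of the window and does not show a bound site.

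Probe sets of the same gene did not always give the same call. Of the 25 called members, 14 had other tested probe sets: for 4 of these all others gave the same call, and for none was another called in the opposite direction. Among the 61 members that did not pass, 35 had other tested probe sets, of which another was called higher for 11 genes and lower for 3. Ndufa12, named after its values were seen, was in both counts, with probe sets at 0.92 and -2.12 log2 units. Counting a gene as called if any of its probe sets was, 33 genes were higher and 6 lower. With the mean of all probe sets per gene, 24 members were higher and 4 lower. Neither pair of counts has the share of all genes beside it.

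**Figure D4:**
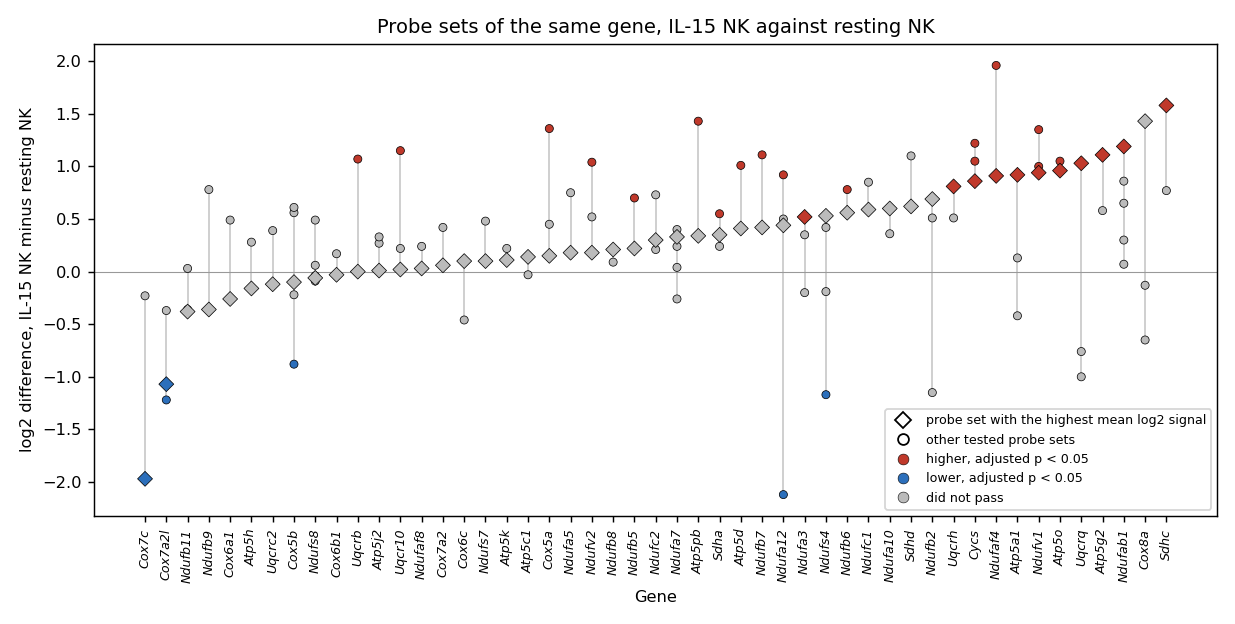
Difference in mean log2 signal, IL-15 NK minus resting NK, for each tested probe set of the genes with more than 1 tested probe set, with genes ordered by the value of the probe set used in the text (diamonds). Red and blue symbols passed the test over all probe sets, in which Ndufc1 no longer passed; grey symbols did not pass, and vertical lines join probe sets of a gene.

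Comparing NK cells with splenocytes asks how the members' share of the signal in NK cells differs from that in the mixed spleen cells. Since the chips of the 2 splenocyte samples can be paired in 3 ways, each gene kept the largest p from those 3 fits. In bulk samples, fewer cells of a type and less RNA per cell cannot be told apart. In IL-15 NK cells 26 of 87 tested members were higher than in splenocytes and 15 lower, against 20.8% and 23.5% of all genes tested, with a median difference of 0.34 log2 units against -0.10 over all genes. In resting NK cells 12 of 88 tested members were higher and 22 lower, against 17.1% and 21.5% of all genes, with a median of 0.00 against -0.06. The groups did not overlap for 39 members higher and 22 lower in IL-15 NK cells, against 27.8% and 29.8% of all genes, and for 21 higher and 23 lower in resting NK cells, against 22.7% and 27% of all genes. With all arrays and the brightest probe set per gene, the shares of called members in resting NK cells were thus close to those of all genes. Scaling to a common median changed the splits to 47 higher and 9 lower for IL-15 NK cells and to 24 higher and 17 lower for resting NK cells, while the medians of all genes moved to 0.42 and 0.24. No share of all genes called under that scaling is given here, so these splits have no background. The comparisons of IL-15 NK cells, resting NK cells and splenocytes share these arrays with each other, so their values are given side by side only. Without resting NK array 2 the counts were 33 higher and 18 lower for IL-15 NK cells, where that array enters the shared variance. For resting NK cells they were 11 higher and 29 lower. The shares of all genes without that array are not given here, so closeness to them was not assessed in that setting.

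In complex I, 18 of 41 tested genes were higher and 5 lower in IL-15 NK cells against splenocytes, and 8 were higher and 8 lower in resting NK cells. Ndufc1, an accessory subunit of the membrane arm, had 30838, 22467 and 22729 in IL-15 NK cells, 14394, 19912 and 16059 in resting NK cells and 7546, 7607, 7100.3 and 6184 in splenocytes. Every NK array was above every splenocyte chip, with log2 differences of 1.82 ± 0.19 for IL-15 NK and 1.23 ± 0.19 for resting NK cells (SE, limma adjusted p = 0.00019 and 0.0016), and its second probe set gave 0.15 and -0.71 without passing. Ndufa13, also known as GRIM-19, was higher in resting NK cells, with a difference of 1.41 ± 0.30 log2 units (limma adjusted p = 0.0058). Ndufs5, an accessory subunit on the side of the intermembrane space, had 964, 1339 and 1121 in IL-15 NK cells, 815, 985 and 972 in resting NK cells and 7379.8, 7345, 6258 and 5428 in splenocytes. No NK array came near a splenocyte chip, with log2 differences of -2.53 ± 0.23 for IL-15 NK and -2.83 ± 0.23 for resting NK cells (limma adjusted p = 6.4e-05 and 3.9e-05). Ndufa6, which sits by the iron-sulfur arm, was also lower in both kinds of NK cell, with log2 differences of -2.31 ± 0.38 for IL-15 NK and -1.90 ± 0.37 for resting NK cells. Ndufb1 had 295, 155 and 216 in resting NK cells, where 1 array was at the floor, against 1315, 1536, 1056 and 1372 in splenocytes, and was at least 5.80-fold lower in resting NK cells (limma adjusted p = 0.00016). Complex I thus held genes far from splenocytes in both directions.

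In complex II, Sdha and Sdhd were higher in IL-15 NK cells than in splenocytes, with log2 differences of 0.77 ± 0.16 and 0.63 ± 0.22 (limma adjusted p = 0.0047 and 0.044). Sdhc was lower in resting NK cells, with a difference of -0.83 ± 0.27 (limma adjusted p = 0.042). The call of Sdhd was lost without any 1 of the IL-15 NK arrays, resting NK array 3 or splenocyte chip 1, 3 or 4, and that of Sdhc was lost without any 1 of the IL-15 NK arrays, resting NK array 1 or 2 or splenocyte chip 2. Over the settings that leave out 1 array their differences ranged from 0.56 to 0.68 for Sdhd and from -1.03 to -0.57 for Sdhc. Both calls were lost without the floor filter. That of Sdhc was also lost under scaling to a common median. That of Sdhd was also lost under quantile scaling, with the mean of all probe sets and without the trend in the fit. In complex III, Uqcr10, a small membrane subunit, had 840.0, 1001 and 929 in IL-15 NK cells, 852, 903 and 963 in resting NK cells and 9088, 8889.7, 7744 and 6912 in splenocytes. The NK arrays of both kinds lay together, far below the splenocyte chips. The log2 differences were -3.14 ± 0.21 for IL-15 NK and -3.16 ± 0.21 for resting NK cells (limma adjusted p = 1.1e-05 and 1.2e-05), and both of its other tested probe sets were called lower too. Uqcrh was lower than in splenocytes with differences of -0.64 ± 0.19 in IL-15 NK and -1.45 ± 0.19 log2 units in resting NK cells. Cyc1 was higher in IL-15 NK cells, with a difference of 0.88 ± 0.29 (limma adjusted p = 0.04). That call was lost without any 1 of the IL-15 NK arrays, with differences of 0.85 to 0.91, and without the floor filter. The call of Uqcrh in IL-15 NK cells was lost without IL-15 NK array 2 (range -0.71 to -0.56) and under scaling to a common median.

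In complex IV, Cox7c was lower than in splenocytes in IL-15 NK cells and higher in resting NK cells. It had 2315, 1861, 2576 and 2485 on the splenocyte chips, and the log2 differences were -0.93 ± 0.21 for IL-15 NK and 1.04 ± 0.21 for resting NK cells (limma adjusted p = 0.0075 and 0.0048). The second probe set of Cox7c did not pass in either comparison. Its IL-15 NK call was lost under scaling to a common median, and its resting NK call with the mean of all probe sets. Cox7a2l was higher in resting NK cells, with a difference of 1.27 ± 0.27 (limma adjusted p = 0.0067), while another of its probe sets was called lower with -1.66 log2 units. Cox8a had 10019, 10051, 8574 and 8983 in splenocytes and was lower in resting NK cells, with a difference of -3.47 ± 0.77 log2 units (limma adjusted p = 0.008). Cox5b, which binds zinc on the matrix side, was higher in both kinds of NK cell, with log2 differences of 0.91 ± 0.28 for IL-15 NK and 1.02 ± 0.28 for resting NK cells, and Cox6c was lower in both, with -1.02 ± 0.32 for IL-15 NK and -1.12 ± 0.32 for resting NK cells. The second probe set of Cox6c was called higher in resting NK cells, with 1.02 log2 units, and 1 of 4 other tested probe sets of Cox5b was called lower there, with -0.67. In IL-15 NK cells the calls of Cox5b and Cox6c were each lost without IL-15 NK array 1 or 3, with differences of 0.84 to 0.99 and -1.19 to -0.92, and in resting NK cells that of Cox6c was lost without resting NK array 1 or 3. Scaling to a common median also ended the Cox6c call in both kinds of NK cell. Cox6b2, the testis isoform of a coat subunit, was above the floor on every splenocyte chip, at 1153, 987, 1113 and 1546, and on 1 of 6 NK arrays. It was at least 6.58-fold lower in IL-15 NK and at least 5.82-fold lower in resting NK cells (limma adjusted p = 3.8e-05 and 6.2e-05).

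In complex V the subunit c genes differed in direction. Atp5g1 had 6099.5, 8789, 6166 and 4766 and Atp5g2 25182, 26524, 20524 and 17779 on the splenocyte chips, all above every NK array. The log2 differences of Atp5g1 were -1.22 ± 0.28 for IL-15 NK and -3.09 ± 0.28 for resting NK cells (SE, limma adjusted p = 0.0076 and 7.6e-05). Those of Atp5g2 were -1.93 ± 0.26 for IL-15 NK and -3.04 ± 0.26 for resting NK cells (limma adjusted p = 0.00053 and 5.3e-05). Both genes were thus lower in NK cells, and in resting NK cells by the larger amount. The call of Atp5g1 in IL-15 NK cells was lost under scaling to a common median. Atp5g3, with 49721, 44103, 42175 and 44154 on the splenocyte chips, was higher in IL-15 NK cells, with a difference of 0.69 ± 0.17 (limma adjusted p = 0.0096), and differed by 0.39 ± 0.17 log2 units in resting NK cells without passing. The second probe set of Atp5g2 gave 0.06 and -0.52 log2 units in the same comparisons and did not pass in either. Atp5l, the g subunit of the membrane part, had 2299, 3950.0 and 2183 in IL-15 NK cells, 1533, 4064 and 1298 in resting NK cells and 16576, 17123, 19205 and 20857 in splenocytes. No NK array came near a splenocyte chip, with log2 differences of -2.76 ± 0.48 for IL-15 NK and -3.19 ± 0.47 for resting NK cells (limma adjusted p = 0.0021 and 0.0012). The stalk subunits Atp5j, in IL-15 NK cells, and Atp5h, in resting NK cells, were higher than in splenocytes, with differences of 0.97 ± 0.21 and 0.77 ± 0.19 log2 units, although the second probe set of Atp5h was called lower in resting NK cells, with -0.81.

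Opposite calls from different probe sets of a gene occurred against splenocytes. Of the 21 members called in IL-15 NK cells that had other tested probe sets, 3 had another called in the opposite direction, and of 18 such members in resting NK cells 7 had. With the mean of all probe sets, 7 members were higher and 26 lower in resting NK cells, against 12 and 22 with the brightest one. The shares of all genes with the mean are not given here.

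**Figure D5:**
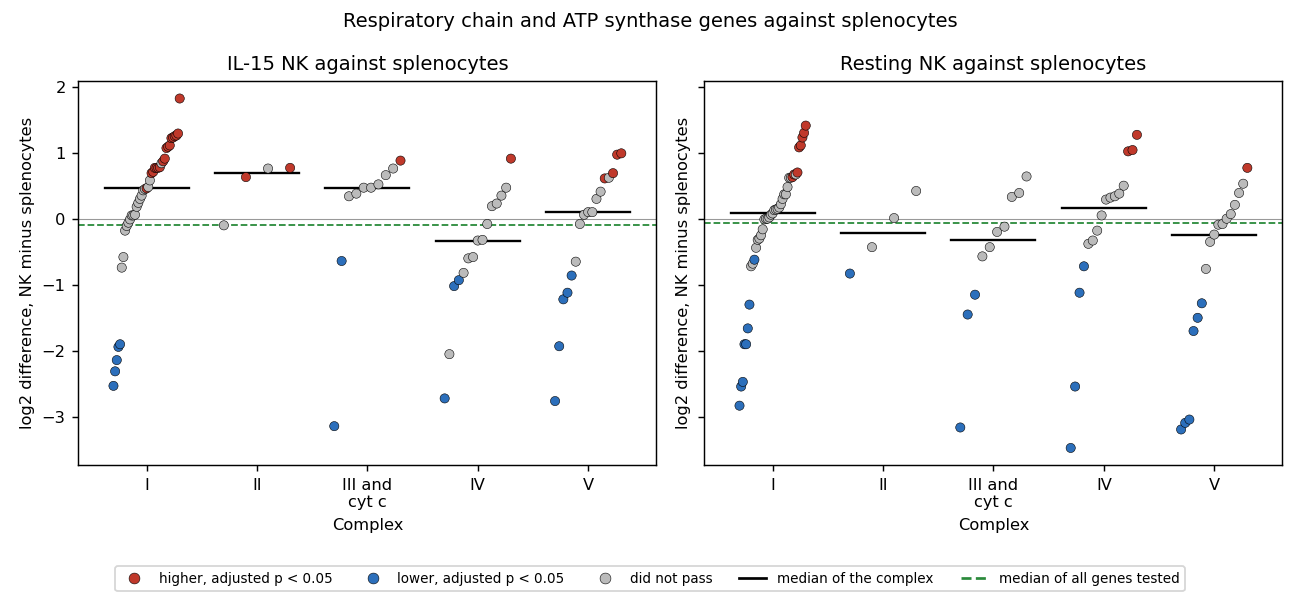
Difference in mean log2 signal between NK cells and splenocytes for the tested genes of each complex, IL-15 NK (87 genes) in the left panel and resting NK (88 genes) in the right, with symbols as in the plot of differences by complex. In resting NK cells the lowest genes of complexes I, III, IV and V lie at -2.83, -3.16, -3.47 and -3.19, and the medians of the 5 complexes lie between -0.33 and 0.70 in IL-15 NK cells and between -0.32 and 0.17 in resting NK cells.

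Other genes of the pathway were counted from lists, against the 14.2% higher and 12.1% lower of all genes tested in IL-15 NK against resting NK cells. Of 41 tested assembly factors outside the symbol rule, 7 were higher and 2 lower. Coa7, an assembly factor of complex IV, had 1977, 1484 and 1971 in IL-15 NK cells against 656, 603 and 450.4 in resting NK cells, and Nubpl, which delivers iron-sulfur clusters to complex I, had 1372, 1806 and 1288 in IL-15 NK cells against 444, 555 and 646 in resting NK cells. In both genes every IL-15 NK array was above every resting one (log2 differences 1.67 ± 0.28 and 1.44 ± 0.28 SE, limma adjusted p = 0.0018 and 0.0045). Of 8 tested carriers, pores and inhibitors 4 were higher and 4 did not pass. Vdac2, a pore of the outer membrane, had 27767, 27709 and 28862 in IL-15 NK cells against 15571, 11304 and 11050.4 in resting NK cells (log2 difference 1.17 ± 0.18 SE, limma adjusted p = 0.0013). Atpif1, the inhibitor that stops complex V from running in reverse, had 6883, 6491 and 6161 in IL-15 NK cells against 2708, 3881 and 2555 in resting NK cells (log2 difference 1.12 ± 0.21 SE, limma adjusted p = 0.0034). Both genes had their groups clearly apart.

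Of 8 tested enzymes that feed electrons into the chain from elsewhere, 4 were higher and 4 did not pass. Dhodh, of pyrimidine synthesis, and Etfa, of fatty acid oxidation, differed by 1.14 ± 0.26 and 1.10 ± 0.22 log2 units (SE, limma adjusted p = 0.01 and 0.0053). In coenzyme Q synthesis 3 of 12 were higher and 1 lower. Coq7, a hydroxylase of the ring, had 3117, 3150.2 and 3664 in IL-15 NK cells against 474, 857 and 678 in resting NK cells (5.07-fold higher, log2 difference 2.34 ± 0.28 SE, limma adjusted p = 0.00028). Coq8a, an atypical kinase of the same pathway, had 197, 457 and 376 in IL-15 NK cells against 1397, 626 and 930.0 in resting NK cells and was lower (2.88-fold, log2 difference -1.53 ± 0.40 SE, limma adjusted p = 0.018), a call that was lost without IL-15 NK array 1 or resting NK array 1 (range -1.82 to -1.17 over settings without 1 array). These 2 genes moved in opposite directions, and 8 of the 12 did not pass.

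Among 16 tested nuclear regulators of respiration 2 were higher and 1 lower. Myc, whose protein reads E-boxes, had 4074, 4096 and 3673 in IL-15 NK cells against 1934, 1442 and 1164 in resting NK cells (log2 difference 1.41 ± 0.24 SE, limma adjusted p = 0.002). Pprc1, a serum-responsive relative of the PGC-1 coactivators, had a difference of 1.29 ± 0.23 log2 units. Both genes had their groups clearly apart. Of the 15 tested genes of mitochondrial DNA maintenance and transcription 0 passed by limma, with a median of 0.10 log2 units. At an unadjusted p under 0.05, where no share of all genes was computed, 1 was higher and 0 lower. ND5, the complex I subunit encoded in mitochondrial DNA, had 12069, 14505 and 15438 in IL-15 NK cells and 15293, 8460.2 and 15603 in resting NK cells and did not pass (log2 difference 0.14 ± 0.25 SE, limma adjusted p = 0.72). On the splenocyte chips ND5 had 111082, 111063, 90718 and 63089, above every NK array, and the log2 differences were -2.72 ± 0.29 for IL-15 NK and -2.86 ± 0.29 for resting NK cells (limma adjusted p = 0.00015 and 0.00013).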

How the data were processed

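Mouse spleen RNA was measured on 1-colour Affymetrix arrays with 45101 probe sets. The deposited values are linear intensities from GCOS 1.4, per the submitters' processing notes; each array has a trimmed mean of 1500 (2% cut at each end), as computed from the files. The sources used here name no summary algorithm and no genome build. Gene names came from the platform annotation: 34945 probe sets had 1 gene symbol, 932 had several and 9160 had none.

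Intensities were floored at 179.8, the median over arrays of their 40th percentile, and log2 was taken. Each gene kept its probe set with the highest mean. Genes that exceeded the floor on 3 or more arrays of a comparison entered the test (limma 3.58.1, R 4.3.3, lmFit, eBayes with trend, Benjamini-Hochberg over all tested genes, threshold 0.05). Splenocyte chips were averaged under each of 3 pairings, in fits over all groups, and the largest p was kept. Arrays of NK cells are 3 per group, which limits precision. Tests were tried on simulated data. A common median, quantile scaling, no filter, other probe set rules, no trend, leaving out each array and the replicate number as a block were alternatives. Whether NK replicate numbers pair samples is not stated: deviations of same-numbered arrays correlated at 0.10, 0.28 and 0.07.

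The members and the gene lists were chosen with earlier results of these data known. Genes were named by rule: per complex the member with the highest mean log2 signal, up to 4 higher and 4 lower members with the largest differences in IL-15 NK against resting NK cells, up to 2 each way against splenocytes, the complex II genes, Cyc1, Cycs and the isoform families, and up to 2 genes per list. Promoters came from RefSeq (GRCm38.p6). Gene symbols are those of the annotation, some of them old.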

Additional observations from a re-analysis of the deposited data

Results flagged for a closer look

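The 4 splenocyte chips were the only group large enough for Dixon's test of a single chip that lies far from the others. The test takes the chips as 4 independent values, while they come from 2 biological samples, and the share of about 1 in 20 that chance gives is for independent values. Of the 92 members, 3 were at the floor on every chip and had no range, and 6 had a gap above Dixon's 95% critical value. The gap, as a share of the group's range of log2 signals, was 0.907 for Atp5md on chip 2, 0.841 for Cox4i2 on chip 4, 0.869 for Ndufb3 on chip 3, 0.874 for Ndufc2 on chip 1 and 0.896 for Sdha on chip 2. The value of 1 for Cox7a1 on chip 2 follows from the floor, at which the other chips were set, and measures no gap.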

How the results depend on the processing

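Each count was recomputed under other settings. Shares of all genes called under them are not given in this section, so the counts have no background. In IL-15 NK against resting NK cells, 22 members were higher, against 14 with no filter and 35 under median scaling, and 3 were lower, against 1 under median scaling. With probe sets taken singly, 38 of the members' probe sets were higher and 7 lower. Those are counts of probe sets, in which a gene can enter more than once. The median difference of 0.34 became 0.60 under median scaling. Leaving out each array gave 16 to 36 higher, 3 to 3 lower and medians of 0.21 to 0.54. In IL-15 NK against splenocytes, 26 higher members became 47 under median scaling, 15 lower became 9, and the median of 0.34 became 0.94. Taken singly, 40 probe sets were higher and 34 lower, with a median of 0.12 over probe sets. Leave-one-out ranges for higher members, lower members and the median were 19 to 33, 13 to 18 and 0.20 to 0.35. In resting NK against splenocytes, 12 higher members became 24 under median scaling, 7 with the mean of all probe sets and 20 with the chips as 4 samples. Taken singly, 23 probe sets were higher and 54 lower, beside 22 lower members. The median of 0.00 became 0.35 under median scaling, and the leave-one-out ranges were 10 to 12, 19 to 29 and -0.21 to 0.07. Of the 25 genes called between IL-15 and resting NK cells, 14 kept the call with no filter, 24 under quantile scaling, 23 under median scaling, 20 with the mean of all probe sets and 21 without the trend. With the replicate block, 30 members were higher and 3 lower, with a median of 0.34, and 24 of the 25 calls were kept; IL-15 NK array 1 correlated best with resting NK array 3 (0.15), so not every array correlated best with its own number. Signs of IL-15 NK minus resting NK turned for Cox6b1 (0.01 quantile, 0.24 median scaling, 0.07 mean of all probe sets, -0.20 to 0.06 leaving out each array), Cox8a (-0.05 quantile), Cox6a1 (0.01 median scaling, 0.12 mean of all probe sets, -0.48 to 0.13 leaving out each array, 0.07 without resting NK arrays 1 and 2), Ndufa1 (0.07 median scaling, -0.32 to 0.03 leaving out each array, 0.04 without 1 and 2), Uqcrq (-0.27 mean of all probe sets), Uqcrb (-0.08 to 0.11 leaving out each array, -0.03 without 1 and 2), Cox7a2 (-0.14 to 0.42 leaving out each array) and Cox4i1 (0.01 without 1 and 2), and for Atp5h in resting NK against splenocytes (-0.02 mean of all probe sets). Of these, only Uqcrq and Atp5h were called with the probe set used. The causes were not tested. Among named genes 1789 values kept direction and call, 19 gained a call, 106 lost one and 24 turned. Signals near the floor limit the tissue-restricted isoforms.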

Other observations

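The symbol rule also matches 10 probe sets that the annotation assigns to several genes, which were left out of the counts. Of the probe sets shared by Ndufb4, Ndufb4b and Ndufb4c, one had 3656, 4678 and 5092 in IL-15 NK cells, 1431, 1290 and 1347 in resting NK cells and 7862, 8128, 7574 and 7327 in splenocytes. On this probe set the groups did not overlap. The other had 9894, 12925 and 10875 in IL-15 NK cells, 5664, 9954 and 7175 in resting NK cells and 10927, 11635, 9399 and 10219 in splenocytes, and there all groups overlapped. Signals of the gene copies cannot be told apart. The Ndufb4 probe set with a single symbol was at the floor on 9 of 10 arrays. The probe set shared by Ndufs6 and Ndufs6b had 10497, 12641 and 10659 in IL-15 NK cells, 5381, 9544 and 5440 in resting NK cells and 6951, 5724, 5082 and 6732 in splenocytes, so that resting NK array 2 was again the highest of its group. Of the probe sets shared by Ndufa11 and Ndufa11b, one had 2037, 2372 and 2410 in IL-15 NK cells, 1699, 3695 and 1300 in resting NK cells and 6213, 6058, 5738 and 5974 in splenocytes, and its splenocyte chips lay above every NK array. The other had 170.0, 263 and 433 in IL-15 NK cells, 724, 479 and 229 in resting NK cells and 353, 343, 374 and 269 in splenocytes, near the floor and with overlapping groups. The probe set shared by Ndufab1 and its pseudogene had 18252, 16892 and 12376 in IL-15 NK cells, 9891, 13882 and 10640 in resting NK cells and 5646, 4839, 4252 and 3795 in splenocytes, with every NK array above every splenocyte chip, whereas the probe set of Ndufab1 alone was called lower in resting NK cells than in splenocytes (log2 difference -1.30, limma adjusted p = 0.00086). The probe set shared by Ndufs5 and its pseudogene had 2130.0, 3012 and 2472 in IL-15 NK cells, 2392, 2284 and 2221 in resting NK cells and 7042, 6347, 5727 and 5274 in splenocytes, with every NK array below every splenocyte chip. The other 3 probe sets, shared by Ndufa13 and Yjefn3 or by Ndufb2 and Adck2, had signals of at most 566 on any array.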
